A study of Mus musculus with 15 samples.

Results

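Genes that are commonly read as macrophage markers were followed across 15 RNA-seq libraries of E0771, a mouse mammary carcinoma cell line. The 10 genes were Apoe, Lyz2, C1qa, C1qb, C1qc, Adgre1, Csf1r, Tyrobp, Cd68 and Cd14, out of 55571 gene rows, each found once by its symbol. They were chosen by their levels, which had been seen to differ between these libraries, so levels, intervals and fold changes of the 10 describe these libraries, without p-values. Where a fit over all genes called a member, the call is listed and nothing is read from it. The groups, of 3 libraries each, carried wild-type Malt1 (Malt1_WT, below WT), the mutant that the labels call Malt1_PD (PD), the substitutions V87R (Malt1_V87R) and L88D (Malt1_L88D), or a vector control. MALT1 is a paracaspase, a scaffold and protease upstream of NF-kB. All 5 groups were the same cell line, labelled as cancer cells and, per the series title, kept without T cells. The labels give neither the promoter of the constructs nor whether each was carried by a pool or a clone, and they do not say whether replicates were separate cultures, so that p-values below measure only the spread between these samples, which may be technical. Levels are in CPM, counts scaled to a common library total. Malt1 itself averaged 202 ± 7.96 CPM in WT cells, 250 ± 8.87 in PD, 279 ± 1.35 in V87R and 251 ± 6.74 in L88D cells, against 28.1 ± 1.92 CPM in vector cells (SD, n = 3 each).

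Macrophages take up and digest particles and dying cells, and they secrete complement, lipid carriers and lysozyme. C1qa, C1qb and C1qc encode the chains of C1q, the recognition part of the first complement component, which tissue macrophages are a main source of. Csf1r encodes the receptor for the growth factors CSF1 and IL-34, Tyrobp the signalling adaptor DAP12, Adgre1 the F4/80 surface antigen, Cd14 a co-receptor for bacterial lipopolysaccharide, Cd68 a glycoprotein of lysosomes, Lyz2 the myeloid lysozyme and Apoe the lipid carrier apolipoprotein E. Apoe, Cd68 and Cd14 are also made by many cells that are not macrophages.

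The 10 genes did not move as 1 block. Cd14 and Cd68, at 7.39 CPM or more in all 15 libraries, were nearly equal between libraries of a group and differed by construct. The C1q chains and Tyrobp, which never reached 1 CPM, were uneven between the libraries of L88D, and so were Csf1r, Adgre1, Lyz2 and Apoe. Lyz2 was uneven in WT cells too, from 2.37 to 6.90 CPM. These 8 genes also differed by construct. Their summed CPM, mostly Lyz2 and Apoe, was 31.8, 29.3 and 30.4 in PD cells, against 16.2, 15.2 and 14.4 in vector cells. In L88D cells replicate 1 was lower than replicates 2 and 3 for each of these 8 genes, and below or within the range of the vector libraries for all but C1qb.

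The start-site windows of Lyz2, C1qb, C1qc and Cd68 are shown because these genes lie on both sides of that division and had a window in the RefSeq promoter table (GRCm38.p6, 250 bases before to 50 after the start). Capitals mark the letters GGAAGT or, on the other strand, ACTTCC, a core bound by the ETS family that includes the myeloid factor PU.1, and TGANTCA, the AP-1 site. Both motifs were chosen after the sequences had been read, both strands were searched, and neither motif contains the other. Lyz2 lies at chr10:117282223-117282522, C1qb at chr4:136886151-136886450, C1qc at chr4:136892865-136893164 and Cd68 at chr11:69666121-69666420, and each is on the minus strand and printed 5′ to 3′ along the gene.
Lyz2: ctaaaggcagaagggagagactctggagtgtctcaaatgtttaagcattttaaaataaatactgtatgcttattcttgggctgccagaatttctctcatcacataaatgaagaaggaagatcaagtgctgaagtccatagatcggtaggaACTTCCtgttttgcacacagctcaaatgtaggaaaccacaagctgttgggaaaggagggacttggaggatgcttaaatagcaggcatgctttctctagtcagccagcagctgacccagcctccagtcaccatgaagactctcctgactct
C1qb: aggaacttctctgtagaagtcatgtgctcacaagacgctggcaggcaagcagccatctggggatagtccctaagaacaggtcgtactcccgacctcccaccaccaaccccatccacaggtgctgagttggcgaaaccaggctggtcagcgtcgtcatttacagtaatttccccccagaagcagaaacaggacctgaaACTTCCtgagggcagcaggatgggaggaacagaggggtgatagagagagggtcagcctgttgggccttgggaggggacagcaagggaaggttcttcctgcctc
C1qc: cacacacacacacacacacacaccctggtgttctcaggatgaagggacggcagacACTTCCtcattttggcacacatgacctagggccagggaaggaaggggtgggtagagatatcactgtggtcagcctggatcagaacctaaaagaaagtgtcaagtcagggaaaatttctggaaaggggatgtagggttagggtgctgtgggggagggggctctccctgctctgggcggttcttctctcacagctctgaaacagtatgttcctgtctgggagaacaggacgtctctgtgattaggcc
Cd68: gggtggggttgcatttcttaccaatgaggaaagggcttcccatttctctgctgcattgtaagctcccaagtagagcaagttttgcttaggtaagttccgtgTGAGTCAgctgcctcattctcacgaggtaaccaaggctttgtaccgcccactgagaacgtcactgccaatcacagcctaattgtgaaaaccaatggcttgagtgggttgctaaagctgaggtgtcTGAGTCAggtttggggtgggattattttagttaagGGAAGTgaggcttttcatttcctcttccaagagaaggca
The ETS core stood once in each of these 4 windows, and 23.8% of all 32851 windows of the table held it. TGANTCA stood in the Cd68 window at 2 places, 149 and 24 bases before the start, and in 7.81% of all windows. The 3 windows of Apoe held neither string. A match is a string of letters and no measure of binding.

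C1qa, C1qb and C1qc are neighbours on chromosome 4 (GRCm38, GENCODE M21: 136895917 to 136898803, 136880129 to 136886187 and 136889804 to 136893065, minus strand, protein coding). Their counts were low everywhere. C1qb had 1, 1 and 0 counts in Malt1_WT replicates 1, 2 and 3, 13, 4 and 13 in PD cells, 0, 5 and 1 in V87R cells, and 4, 16 and 10 in L88D cells, against 2, 2 and 0 in vector cells. The PD and L88D libraries lay above those of vector cells in CPM without overlap, the nearest being PD replicate 2 and L88D replicate 1. C1qc had 4, 8 and 8 counts in PD cells and 1, 10 and 10 in L88D cells, against 2, 1 and 0 in vector cells. C1qa had 5, 5 and 3 counts in PD cells and 0, 6 and 2 in L88D cells, against 0, 0 and 1 in vector cells. In L88D cells replicate 1 was thus the lowest for all 3 chains, and for C1qa and C1qc it was at or under the highest vector library. In WT and V87R libraries C1qa had at most 3 counts and C1qc at most 1.

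Summed over the C1q chains and Tyrobp, whose product carries signals of several myeloid receptors, the counts were 3, 5 and 0 in WT cells, 23, 20 and 29 in PD cells, 0, 11 and 4 in V87R cells, and 5, 39 and 27 in L88D cells, against 4, 3 and 4 in vector cells. The exact 95% Poisson interval of the 5 counts in L88D replicate 1 ran from 1.62 to 11.7 counts, and that of the 39 counts in replicate 2 from 27.7 to 53.3. That of the 27 counts in replicate 3 ran from 17.8 to 39.3. Replicate 1 was the lowest, and this describes the unevenness on which the genes were chosen. A pair of libraries, WT replicate 3 and V87R replicate 1, had 0 counts of all 4 genes. For a count of 0 the upper end of such an interval is 3.69 counts, or 0.237 CPM in WT replicate 3 and 0.188 CPM in V87R replicate 1. These intervals cover counting error alone. Tyrobp by itself had 0, 7 and 5 counts in L88D cells and 1, 3 and 5 in PD cells, against 0, 0 and 3 in vector cells, and so overlapped with the vector group in both. These libraries are bulk RNA, in which fewer cells of a type and less RNA per cell cannot be told apart.

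**Figure D1:**
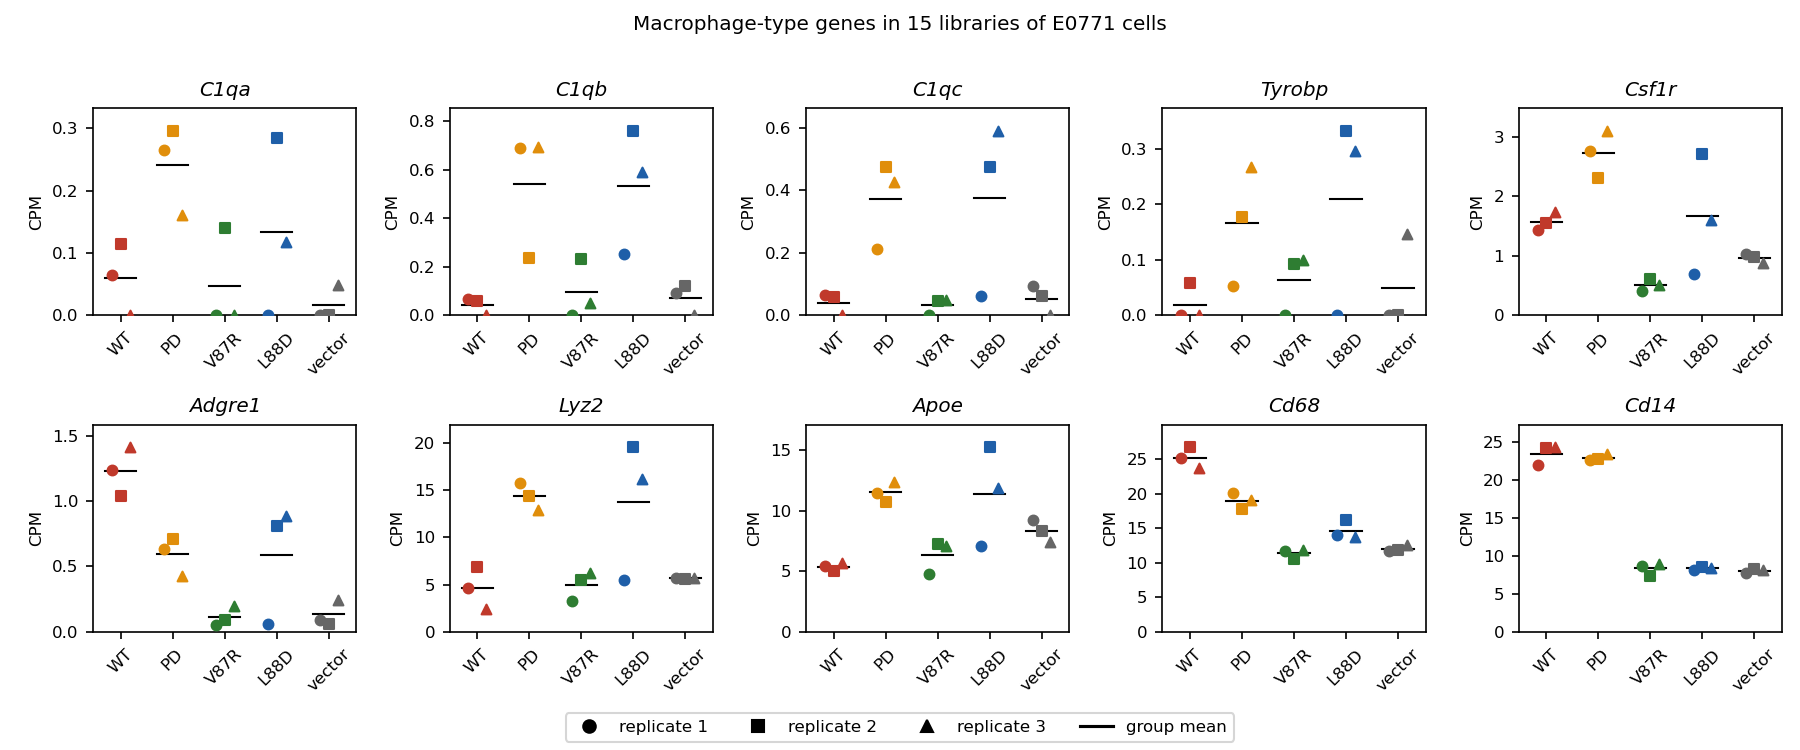
CPM of the 10 genes (y axis, each panel from 0 on its own scale) in the 4 Malt1 groups and the vector group (x axis). Symbols mark replicates 1, 2 and 3 and the line is the group mean. The Malt1_L88D circle of replicate 1 lies at 5.49 CPM for Lyz2, far below the other two libraries of that group at 19.5 and 16.2 CPM, whereas the 3 Cd14 values of that group lie together.

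Csf1r (chromosome 18, 61100598 to 61132149, plus strand) was at 1.43, 1.55 and 1.73 CPM in WT cells, 2.76, 2.31 and 3.10 CPM in the PD libraries, 0.408, 0.604 and 0.501 CPM in the V87R libraries, and 0.694, 2.71 and 1.60 CPM in L88D cells, against 1.02, 0.982 and 0.881 CPM in vector cells. The WT and PD libraries lay above all vector libraries and the V87R libraries below them. The L88D group straddled the vector group, with replicate 1 below it and replicates 2 and 3 above it. Replicate 2 held 3.91 times the CPM of replicate 1 (57 against 11 counts, exact 95% interval of the ratio 2.03 to 8.27). The fitted log2 fold changes against vector were 0.71 ± 0.34, 1.50 ± 0.30, -0.91 ± 0.40 and 0.84 ± 0.32 (SE) for WT, PD, V87R and L88D.

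Adgre1 (chromosome 17, 57358691 to 57483527, plus strand) departed from the C1q pattern in WT cells. It had 19, 18 and 22 counts in WT cells, 12, 12 and 8 in PD cells, 1, 2 and 4 in V87R cells, and 1, 17 and 15 in L88D cells, against 2, 1 and 5 in vector cells. Its highest mean, 1.23 ± 0.189 CPM (SD, n = 3), was in WT cells, the group in which the C1q chains together had 0.142 ± 0.124 CPM. In PD cells Adgre1 averaged 0.592 ± 0.147 CPM, and the C1q chains together 1.15 ± 0.138 CPM. The L88D libraries repeated the split seen for the C1q chains, with 1 count in replicate 1 and 15 or more in the other two.

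Lyz2 (chromosome 10, 117277331 to 117282321, minus strand) carried far more counts and gave the clearest view of single libraries. Its level was 4.63, 6.90 and 2.37 CPM in WT cells, 15.7, 14.4 and 12.9 CPM in the PD libraries, 3.26, 5.53 and 6.21 CPM in the V87R libraries, and 5.49, 19.5 and 16.2 CPM in L88D cells, against 5.71, 5.59 and 5.68 CPM in vector cells. L88D replicate 1 was just below the 3 vector libraries, while replicates 2 and 3 exceeded all PD libraries. Within L88D the ratio of replicate 2 to replicate 1 was 3.56 (interval 2.82 to 4.54) and that of replicate 3 to replicate 1 was 2.95 (2.31 to 3.80). The group means were 13.7 ± 7.34 CPM in L88D cells and 14.3 ± 1.38 CPM in PD cells, against 5.66 ± 0.0644 CPM in vector cells (SD, n = 3 each). WT cells averaged 4.63 ± 2.26 CPM, with replicate 3 the lowest. Reads from the near-identical neighbour Lyz1, which had at most 2 counts in any library, can be split with Lyz2 in ways the sources used here do not state.

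Apoe (chromosome 7, 19696109 to 19699188, minus strand) followed the same order within L88D at a smaller size. It was at 5.41, 5.06 and 5.71 CPM in WT cells, 11.5, 10.7 and 12.4 CPM in the PD libraries, 4.79, 7.25 and 7.12 CPM in the V87R libraries, and 7.06, 15.3 and 11.9 CPM in L88D cells, against 9.24, 8.35 and 7.39 CPM in vector cells. All WT and V87R libraries lay below the vector group, all PD libraries above it, and L88D replicate 1 lay just below it with replicates 2 and 3 above. The ratio of L88D replicate 2 to replicate 1 was 2.16 (interval 1.74 to 2.71). The fitted log2 fold change of PD over vector, 0.47 ± 0.21 (SE), was the smallest among the 7 genes that passed the filter on low counts.

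Cd14 (chromosome 18, 36725067 to 36726798, minus strand) was even within groups and split by construct. It was at 21.9, 24.1 and 24.3 CPM in WT cells, 22.5, 22.6 and 23.4 CPM in the PD libraries, 8.67, 7.39 and 8.97 CPM in the V87R libraries, and 8.13, 8.56 and 8.39 CPM in L88D cells, against 7.75, 8.23 and 8.13 CPM in vector cells. WT and PD libraries stood far above the vector group without overlap, and V87R and L88D libraries overlapped with it. The fitted log2 fold changes against vector were 1.55 ± 0.09, 1.51 ± 0.09, 0.05 ± 0.10 and 0.06 ± 0.10 (SE) for WT, PD, V87R and L88D. In L88D the ratio of replicate 2 to replicate 1 was 1.05 (interval 0.835 to 1.33) around a group mean of 8.36 ± 0.215 CPM (SD, n = 3).

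Cd68 (chromosome 11, 69664213 to 69666153, minus strand) was close to Cd14 in arrangement. It had 386, 465 and 369 counts in WT libraries, 379, 301 and 357 in PD, 229, 228 and 236 in V87R, and 222, 340 and 232 in L88D, against 252, 192 and 258 in vector libraries. Scaled for library size it averaged 25.2 ± 1.53 CPM in WT cells, 19.0 ± 1.13 in PD, 11.4 ± 0.671 in V87R and 14.6 ± 1.35 in L88D, each SD with n = 3, against 11.7 to 12.6 CPM in the 3 vector libraries. In CPM the WT and PD groups were highest and did not overlap with each other, and the L88D group lay slightly above the vector group. Replicate 2 of L88D was the highest of its group here too, with a ratio to replicate 1 of 1.16 and an interval, 0.973 to 1.37, that includes 1.

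**Figure D2:**
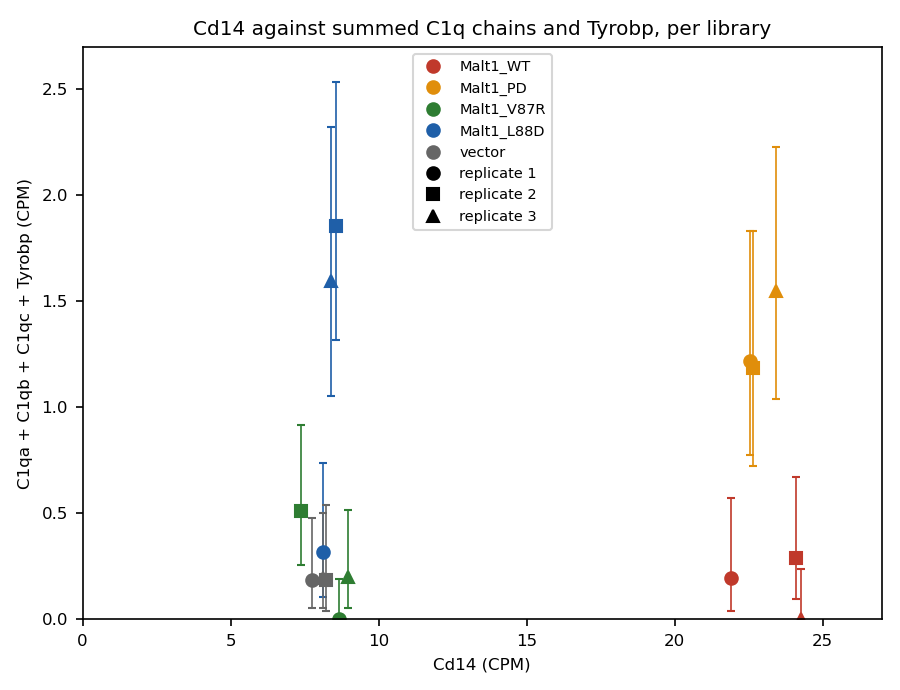
Each point is 1 library, with Cd14 in CPM on the x axis and the summed CPM of C1qa, C1qb, C1qc and Tyrobp on the y axis, and the bars are exact 95% Poisson intervals of the summed count. PD libraries are high on both axes, WT libraries on the x axis alone, L88D replicates 2 and 3 (1.85 and 1.60 CPM) on the y axis alone, and L88D replicate 1 (0.315 CPM) stands with the V87R and vector libraries.

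Levels can be compared between genes per length of exon. In PD cells the levels were 15.1 CPM per kb for Cd68, 13.2 for Cd14, 10.9 for Lyz2 and 5.40 for Apoe. The others were lower, with C1qb at 0.497, Csf1r at 0.472, Tyrobp at 0.249, C1qa at 0.231, C1qc at 0.192 and Adgre1 at 0.183 CPM per kb. The order differed in WT cells, where Adgre1 at 0.379 CPM per kb stood above Csf1r at 0.272 and above each C1q chain, the highest of which was C1qa at 0.0578 CPM per kb.

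Counted over the 10 genes, the libraries of L88D were not alike. Replicate 1 was the lowest of its group for 9 genes and the highest for 0, replicate 2 was the highest for 8, and replicate 3 was the highest for the other 2, Adgre1 and C1qc. Cd68 was the exception, its lowest value being in replicate 3. In V87R, replicate 1 was lowest for 7 genes and highest for 0, with ties counted for no library. In the WT, PD and vector groups each library was highest for at least 2 of the 10 genes and lowest for at least 2. The summed CPM of the 8 genes other than Cd14 and Cd68 was 13.6, 40.2 and 32.1 in L88D cells and 31.8, 29.3 and 30.4 in PD cells, against 16.2, 15.2 and 14.4 in vector cells. In this sum L88D replicates 2 and 3 were thus near or above the PD level, and replicate 1 was below the vector level. Lyz2 and Apoe carried most of it, at 19.5 and 15.3 CPM in L88D replicate 2. Not every gene followed it. Csf1r in L88D replicate 3 (1.60 CPM) was below all PD libraries (2.31 CPM or more). The summed C1q chains in L88D replicate 1 (0.315 CPM) were above all vector libraries (0.186 CPM or less). L88D replicate 1 and V87R replicate 1 also had the smallest total count of their groups (15760281 and 19530472), and the part of depth in these differences was not tested.

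**Figure D3:**
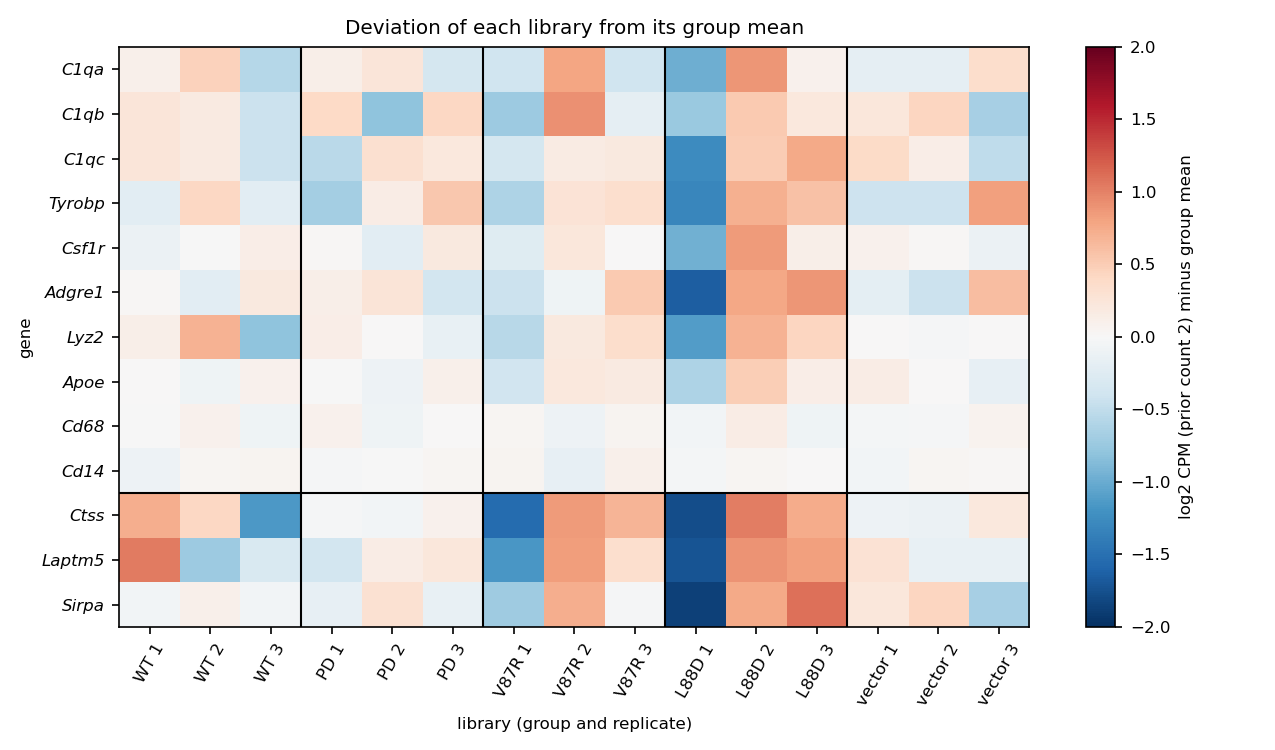
Deviation of each library from its own group mean in log2 CPM (prior count of 2, colour scale from -2 to 2), with libraries by group and replicate on the x axis. The 10 genes are above the line. Below it are Ctss, Laptm5 and Sirpa, picked from the 10 genes of most like pattern. The column of Malt1_L88D replicate 1 is blue for the members other than Cd14 and Cd68, whose mean deviation there is -1.08, and the same members have a mean deviation of 0.68 in replicate 2 and 0.40 in replicate 3.

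The spread within L88D was set against that of all 14571 genes tested, as the difference between the highest and the lowest library in log2 CPM. Its median over all genes was 0.156 and its 90th percentile 0.794. It was 2.53 for Adgre1, 1.81 for Csf1r, 1.81 for Lyz2, 1.27 for C1qb and 1.10 for Apoe, all above that percentile, and 0.24 for Cd68 and 0.07 for Cd14. Low counts widen this difference, so each gene was also ranked among genes within 2-fold of its mean level. Lyz2 ranked 1 of 2411 such genes and Apoe 2 of 2403, Csf1r ranked 11 of 2241 and Adgre1 11 of 2474. C1qb ranked 222 of 923, Cd68 785 of 3205 and Cd14 2598 of 2992. These ranks describe genes that were listed for being uneven and are no test.

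**Figure D4:**
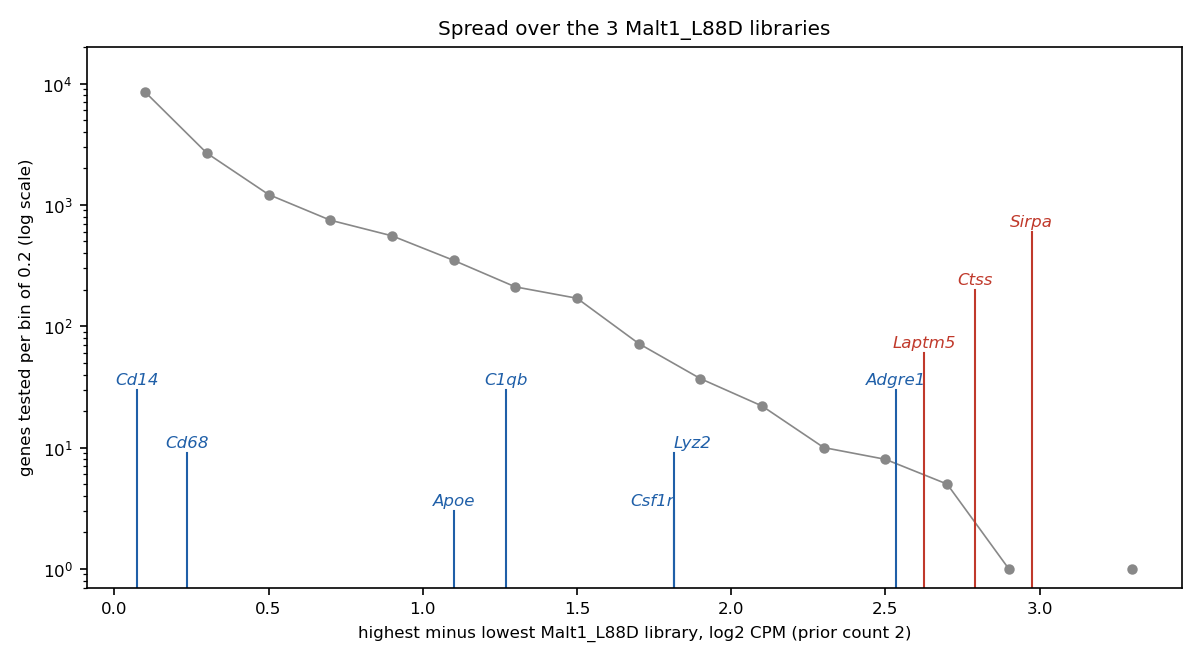
Number of genes (y axis, log scale) by the highest minus the lowest of the 3 Malt1_L88D libraries in log2 CPM (x axis, bins of 0.2, prior count of 2), in grey. The 7 listed genes that passed the filter on low counts are in blue. In red are Ctss, Laptm5 and Sirpa, picked from the genes of most like pattern. Cd14 (0.07) and Cd68 (0.24) lie where most genes lie, and Lyz2, Csf1r and Adgre1 lie in the thin tail.

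The genes whose library-to-library pattern was most like the mean of the 8 members without Cd14 and Cd68 were found among 11893 genes that passed the filter on low counts, with predicted and unnamed ones left out. Likeness was Pearson's r over the 15 libraries of deviations from the group mean, given as a description. The libraries and their depth are the same for every gene, and the genes differ in level, with Bloc1s3 at 11.9 to 19.3 CPM and Ctss at 1.95 CPM or less. The 10 most alike were Ctss (0.91), Rasgef1c (0.90), Rac2 (0.90), Sirpa (0.88), Spn (0.87), Fkbp7 (0.87), Chn1os3 (0.84), Slc4a3 (0.84), Laptm5 (0.83) and Bloc1s3 (0.83). Ctss encodes cathepsin S, a lysosomal protease of antigen-presenting cells, Rac2 a GTPase of blood cells, Sirpa a receptor for CD47 on myeloid cells, Spn the leukocyte sialoprotein CD43 and Laptm5 a lysosomal protein of blood cells. Only Ctss and Laptm5 of the 10 were on a marker list used here. Rasgef1c, Fkbp7, Chn1os3, Slc4a3 and Bloc1s3 are given no role in blood cells here, so the 10 are not read as a macrophage set. Ctss was at 0.521, 0.403 and 0.0642 CPM in WT cells, 1.27, 1.24 and 1.39 CPM in the PD libraries, 0, 0.465 and 0.401 CPM in the V87R libraries, and 0.189, 1.95 and 1.60 CPM in L88D cells, against 0.371, 0.368 and 0.490 CPM in vector cells. Sirpa had 1, 20 and 21 counts and Laptm5 1, 20 and 15 counts in L88D cells. For all 3 genes L88D replicate 1 was far below its group's other libraries, at 3 counts of Ctss and 1 count each of Sirpa and Laptm5. The same measure was 0.90 for Lyz2, 0.88 for Apoe and 0.88 for Csf1r, which are themselves part of the mean, and was 0.29 for Cd68 and -0.03 for Cd14, which are not.

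Genes were also ranked by the same spread within L88D, among 11014 that reached 1 CPM in an L88D library. Members and predicted or unnamed genes were left out, so Csf1r and Lyz2 (1.81 each) are not ranked. The 10 widest were Sirpa (2.97), Ctss (2.79), Chn1os3 (2.32), Smim24 (2.19), Rasgef1c (2.18), Tigd3 (1.95), Tmem266 (1.92), Gnat2 (1.90), Tenm2 (1.79) and Txk (1.78). Of these, Sirpa, Ctss, Chn1os3 and Rasgef1c were also among the 10 most alike, and Tigd3 and Tenm2 had an r of 0.69 and 0.51. Smim24, Tmem266, Gnat2 and Txk had a negative r with the members (-0.49, -0.76, -0.42 and -0.08).

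Other genes of macrophages were taken from a list of 29 that holds no member. Most of them were detected at low levels: Trem2, Vsig4 and Pld4 had 0 counts in all 15 libraries, 13 to 22 of the 29 had a count in each library, 22 never reached 1 CPM, and 9 passed the filter on low counts. Ptprc, which encodes the leukocyte antigen CD45, had at most 5 counts in a library, and Fcgr3, an immunoglobulin receptor of macrophages, 1. In L88D, 25 of the 29 had a count in some library, and replicate 1 was lowest for 14 and highest for 3, replicate 2 was highest for 13 and replicate 3 for 9. Other groups were not even either: PD replicate 2 was lowest for 11 of 23 and highest for 3, PD replicate 3 was highest for 12, and vector replicate 3 was highest for 12 of 24. In V87R, 13 of the 29 had a count in replicate 1, 19 in replicate 2 and 21 in replicate 3. The summed level of the list, mostly Mpeg1 and Fcer1g, was 38.7 to 45.2 CPM in WT cells, 33.0 to 35.6 CPM in the PD libraries, 53.1 to 54.3 CPM in V87R cells and 51.6 to 62.5 CPM in L88D cells, against 33.5 to 34.8 CPM in vector cells. The highest sum was in L88D replicate 2, as it was for the 8 members without Cd14 and Cd68. Mpeg1 made up 30.4 CPM of the list's sum there. By group the sums were ordered otherwise, the 8 members averaging 30.5 CPM in PD and 12.2 CPM in V87R cells, against 15.3 CPM in vector cells. With Cd14 and Cd68 included, the members' sum was highest in PD cells, at 69.8 to 74.5 CPM, and reached 64.9 CPM in L88D replicate 2.

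Summed over their genes, none of 8 lists of markers of other cells was lowest in L88D replicate 1, although a few abundant genes carry each sum. The summed neutrophil list was at 41.8, 37.7 and 37.5 CPM and the dendritic list at 19.9, 19.2 and 19.9 CPM in L88D cells, with replicate 1 highest in both. The T and NK cell list was at 2.65, 2.95 and 2.07 CPM, the B and plasma cell list at 1.01, 0.571 and 1.24 CPM and the erythroid list at 4.85, 4.42 and 5.55 CPM. The fibroblast list was at 287, 286 and 287 CPM, the endothelial list at 15.4, 17.4 and 15.1 CPM and the epithelial list at 103, 105 and 102 CPM. Gene by gene, L88D replicate 1 was lowest for 5 of the 9 dendritic genes with a count, among them Flt3 (0.0631, 0.333 and 0.414 CPM), H2-Aa (0.189, 0.381 and 0.886 CPM) and Ccr7 (0.631, 1.14 and 1.30 CPM), and highest for 2. It was lowest for 2 of 8 neutrophil genes, Ly6g (5.49, 7.37 and 8.04 CPM) being one, and highest for 4. By construct, in the tests described below, 6 of the 7 dendritic genes that passed the filter rose in WT against vector and 5 in PD, with 1 fall in each. Of all genes 54.9% and 44.8% were called there. In V87R and in L88D 2 of the 7 rose, where 11.7% and 17.4% of all genes were called. Nothing particular to the list is read from these counts. For the labelled cancer cell, of 6 epithelial genes Krt8, a keratin, had group means of 89.6 to 117 CPM and Epcam, an adhesion molecule, 5.66 to 9.74 CPM. The keratins Krt18, Krt19 and Krt7 and the E-cadherin gene Cdh1 did not pass the filter, and the highest group mean among them was 0.429 CPM, of Cdh1 in vector cells. The part of macrophage RNA, or of any other cell type, in the members' levels was not tested.

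Between groups, genes were tested with edgeR's quasi-likelihood test over all 14571 genes that passed the filter on low counts, at a Benjamini-Hochberg adjusted p of 0.05. Of the 10 members, 7 passed the filter, and C1qa (28 counts over all libraries), C1qc (48) and Tyrobp (29) did not. The 4 comparisons with vector cells share the same 3 vector libraries. The members' calls stand beside the share of all genes called.

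Malt1_WT against vector asked what the wild-type construct alters in the cells. It called Adgre1 (log2 fold change 3.10 ± 0.58 SE), Cd14 and Cd68 (1.07 ± 0.09) higher and Apoe (-0.63 ± 0.24) lower, 4 of the 7 members, where 54.9% of all genes were called, 27.2% higher and 27.7% lower. The Apoe call was lost when any 1 of the 6 libraries was left out. The median over the members was 0.71, against -0.01 over all genes, and 4 of the 10 members lay higher and 1 lower without overlap, where 29.2% and 30.2% of all genes did, 59.4% in all. In the list of other macrophage genes Coro1a, a coat protein of leukocytes (1.61 ± 0.23, adjusted p = 8.79e-07), Mrc1, the mannose receptor (1.90 ± 0.33, adjusted p = 1.46e-05), and Mpeg1, the pore-forming perforin-2 (1.01 ± 0.12, adjusted p = 2.51e-08), rose. Mertk, a receptor for dying cells, also rose (adjusted p = 0.0325), and Fcer1g, a signalling chain of Fc receptors, fell by 0.39 (adjusted p = 0.00131), so that 4 of 9 rose and 1 fell.

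Malt1_PD against vector called 6 of the 7 members higher, all but Apoe, where 44.8% of all genes were called, 22.8% higher and 22% lower. The fold changes were 2.88 ± 0.77 (log2, SE) for C1qb, 2.05 ± 0.65 for Adgre1, 1.34 ± 0.42 for Lyz2 and 0.66 ± 0.09 for Cd68, and the median over the members was 1.50, against -0.0037 over all genes. In all, 9 of the 10 members lay above the vector libraries without overlap, Tyrobp being the exception, where 24.8% of all genes did, 24.2% lay below them and 49% did either. Among the other macrophage genes 4 of 9 rose: Mrc1 (1.36 ± 0.34, adjusted p = 0.00158), Cd53, a tetraspanin of leukocytes (1.85 ± 0.49, adjusted p = 0.00253), Coro1a (0.82 ± 0.25, adjusted p = 0.00766) and Ctss (1.65 ± 0.64, adjusted p = 0.0454). Mpeg1 and Fcer1g fell (adjusted p = 0.0298 and 0.027). Leaving out PD replicate 1 or PD replicate 3 left 2 of the 4 rises, and the Ctss call was lost when any 1 of the 6 libraries was left out. Among the members, the Lyz2 call was lost without PD replicate 1 or any 1 of the vector libraries. With the 6 libraries compared alone, C1qb and Adgre1 did not pass the filter and Apoe was called higher. With no filter Apoe was called higher and Lyz2 was not called.

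Malt1_V87R against vector called 0 of the 7 members, where 11.7% of all genes were called, 7.01% higher and 4.7% lower. Of the 10 members 2, Csf1r and Apoe, lay below the vector libraries without overlap, where 14.2% of all genes did, 13.5% lay above and 27.7% did either, and the median log2 fold change over the members was -0.17. Mpeg1 rose by 2.42 ± 0.10 on the log2 scale (27.4 ± 0.573 CPM in V87R cells against 5.16 ± 0.680 CPM in vector cells, adjusted p = 4.16e-17) and was the 1 of 9 other macrophage genes called.

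Malt1_L88D against vector depended on single libraries. It called Adgre1 (2.09 ± 0.64), C1qb (2.89 ± 0.77) and Cd68 (0.29 ± 0.09) higher, 3 of the 7 members, where 17.4% of all genes were called, 8.96% higher and 8.43% lower. Without L88D replicate 1 the count was 6, with Apoe, Csf1r and Lyz2 added, and without L88D replicate 2 it was 0. Without vector replicate 1 or vector replicate 2 it was 1, C1qb. DESeq2 called 2, Cd68 and Lyz2. The Lyz2 log2 fold change was 1.31 ± 0.42 with all libraries, 1.66 without L88D replicate 1 and 0.95 without replicate 2, and its L88D mean was 13.7 ± 7.34 CPM with all 3 libraries and 17.9 CPM over replicates 2 and 3. Without overlap with the vector group lay 2 of the 10 members, C1qb and Cd68, where 16.1% of all genes lay higher, 18.3% lower and 34.4% either. Mpeg1 rose by 2.46 ± 0.10 (adjusted p = 3.27e-17) and was again the 1 of 9 other macrophage genes called, with 3 called once L88D replicate 1 was left out. Ctss had a fold change of 1.63 ± 0.64 and an adjusted p of 0.0931.

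Malt1_PD against Malt1_WT called Apoe (1.10), C1qb (3.53), Csf1r (0.79) and Lyz2 (1.61, all log2) higher and Cd68 (-0.41) lower, 5 of the 7 members, where 23.3% of all genes were called, 12.6% higher and 10.7% lower. The count of higher calls was 2, Apoe and C1qb, without WT replicate 1, WT replicate 3, PD replicate 1 or PD replicate 3. C1qb was not among the higher calls of DESeq2 (Apoe and Lyz2). Nor was it among those of the 6 libraries compared alone (Apoe, Csf1r and Lyz2). Of the 10 members 6 lay higher without overlap and 2, Adgre1 and Cd68, lower, where 17.8% and 15.8% of all genes did, 33.7% in all. Cd14, whose log2 fold change was -0.04, overlapped. None of the 9 other macrophage genes was called higher, and Coro1a (-0.80 ± 0.21, adjusted p = 0.00692) and Mpeg1 (-1.38 ± 0.13, adjusted p = 1.72e-09) fell. Ctss, at 1.30 CPM in PD against 0.329 CPM in WT cells, narrowly missed the threshold of this edgeR test (adjusted p = 0.0526). It was called higher with no filter, with a replicate block, with the 6 libraries compared alone and by DESeq2. With RLE scaling or any 1 library left out it was not called.

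Malt1_L88D against Malt1_V87R called 0 of the 7 members and 0% of all genes, with 852 genes at an unadjusted p under 0.05 in edgeR and 0 called by DESeq2, which gave 639 at an unadjusted p under 0.05. The members' log2 fold changes ran from 0.01 for Cd14 to 2.41 for C1qb, with a median of 1.48, against -0.0048 over all genes. C1qb, C1qc, Csf1r and Cd68 lay higher in L88D without overlap, 4 of the 10, where 6.75% of all genes lay higher, 8.29% lower and 15% either. Without L88D replicate 1 the comparison called 2 genes, and these were Apoe and Csf1r. With no filter on low counts Apoe and Csf1r were called higher too, and with the 6 libraries compared alone Csf1r was.

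Partners of the members were taken by role. Their counts of calls stand beside 54.9% of all genes called in WT, 44.8% in PD, 11.7% in V87R and 17.4% in L88D against vector, and nothing particular to a list is read from a count. Of the complement genes that act with C1q, 6 of 8 passed the filter: 4 rose in WT, 2 rose and 3 fell in PD, 5 rose in V87R and 5 in L88D, each against vector. C1s1, a protease of the C1 complex, was at 155 ± 1.99 CPM in WT cells, 83.1 ± 0.896 CPM in the PD libraries, 183 ± 5.89 CPM in V87R cells and 187 ± 10.4 CPM in L88D cells, against 98.7 ± 1.39 CPM in vector cells (adjusted p of 2.88e-05 or less in each). C4b, the next component, rose by 1.41 ± 0.09 in V87R and 1.62 ± 0.09 in L88D and fell by 1.26 in PD (adjusted p of 7.78e-10 or less). Serping1, the inhibitor of the C1 proteases, rose by 2.05 ± 0.12 in WT, 1.60 ± 0.13 in PD and 0.57 ± 0.14 in L88D, and it rose in V87R too (adjusted p of 0.00603 or less in each). C3 rose by 1.25 ± 0.04 in WT and 1.56 ± 0.04 in PD (adjusted p = 9.13e-22 and 1.8e-23), the pair of groups in which Cd14 was high. In L88D the summed complement list was at 766, 758 and 796 CPM, mostly C3 (444, 428 and 445 CPM). Gene by gene, replicate 1 was lowest for C1s1 (176, 188 and 197 CPM), C2 (9.02, 10.7 and 9.63 CPM), C4b and Serping1. It was not lowest for C3 or C1ra (107, 101 and 110 CPM).

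Of the CSF1R ligands, Csf1 rose in all 4 constructs against vector, to 613 ± 15.8 CPM in WT, 723 ± 31.0 CPM in PD, 201 ± 1.83 CPM in V87R and 195 ± 2.39 CPM in L88D, against 156 ± 2.07 CPM in vector cells (adjusted p of 2.89e-07 or less). Il34, the other ligand, was called in none of the 6 comparisons, with means of 12.8 CPM in V87R cells to 14.7 CPM in WT cells. Of the TYROBP partners, Trem1, Trem2 and Trem3 had 0 counts throughout, and the kinase gene Syk, the 1 of 6 that passed the filter, rose in WT (0.47 ± 0.05, adjusted p = 2.67e-09), PD (0.41 ± 0.05) and L88D (0.15 ± 0.05, adjusted p = 0.0315).

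Of the 7 partners of CD14, 5 passed the filter, and 4 rose in both WT and PD, with 1 fall in WT, while 1 rose and 1 fell in V87R and in L88D. Tlr2 rose by 1.81 ± 0.06 in WT, 1.53 ± 0.06 in PD, 1.02 ± 0.06 in V87R and 0.98 ± 0.06 in L88D (adjusted p of 1.06e-12 or less). Tlr4, the lipopolysaccharide receptor, rose by 0.70 ± 0.11 in WT and 0.77 ± 0.11 in PD (adjusted p = 1.96e-05 and 6.87e-06). Lbp, which hands lipopolysaccharide to CD14, fell by 0.92 in WT, 0.51 in V87R and 0.44 in L88D. Of the APOE partners, 5 of 9 passed, and 3 fell and 1 rose in WT and in PD. The cholesterol exporter gene Abcg1 fell by 1.30 in WT and 0.72 in PD (adjusted p = 6.63e-20 and 4.24e-14). All 12 lysosomal genes passed the filter: 3 rose and 3 fell in WT, 3 rose and 2 fell in PD, 1 rose and 1 fell in V87R, and 2 rose and 1 fell in L88D, so that 6 of 12 were called in WT and 5 of 12 in PD, near those shares. Gpnmb, a membrane glycoprotein of lysosomes, fell by 0.59 in WT and 0.52 in PD (adjusted p = 1.57e-13 and 3.07e-12). The sum of the 12 was 5451, 5417 and 5410 CPM in the L88D libraries.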

How the data were processed

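Per the labels' protocols, total RNA was made into stranded libraries. The authors deposited raw counts per gene symbol, with the build GRCm38.p6 and, as tools, featureCounts 1.6.3, STAR 2.7.3a and Trim Galore 0.6.0 listed by the submitters' processing notes. Not given in the sources used here are the annotation release, the strand setting and how reads shared between genes were treated. Columns were matched to groups by name. The columns taken for Malt1_PD are named after a cysteine substitution, and no other construct lacked columns of its own name. Totals ran from 15471746 to 21458457 counts per library, and no 2 libraries held identical values.

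CPM used totals scaled by TMM (0.973 to 1.02). Tests used R 4.3.3 and edgeR 4.0.16 (filterByExpr, robust quasi-likelihood fit of all 15 libraries, 1 mean per group, two-sided, Benjamini-Hochberg at 0.05). The common biological coefficient of variation was 4.61%. The script was tested on simulated data. DESeq2 1.42.0 was an alternative, with RLE scaling, no filter, the 6 libraries compared alone, a replicate block and each library left out. Likeness and spread used log2 CPM with a prior count of 2. Positions and exon lengths are from GENCODE M21, promoter windows from RefSeq.

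The members and lists were chosen with earlier results of these data known. All members were named. From each list up to 3 called genes of smallest adjusted p were named, or up to 2 of highest CPM, and the 10 genes most alike and the 10 widest in L88D. Mertk, Fcer1g, Ptprc, Fcgr3, Flt3, H2-Aa, Ccr7, Ly6g, the epithelial genes and the list genes not covered by that rule were named after their values were seen, as were the ranks by level.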

Additional observations from a re-analysis of the deposited data

How the results depend on the processing

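Most counts were within 1.5 times under every alternative run. Without a filter on low counts, 2 other macrophage genes were called in Malt1_L88D against vector and 1 in Malt1_L88D against Malt1_V87R, where 5 genes were called in all. With the 6 libraries compared alone, 25 genes were called in Malt1_L88D against Malt1_V87R. Leaving out 1 library gave 0 to 2 genes there. It gave 1130 to 1924 genes in Malt1_V87R against vector (1706 with all libraries, 1130 without V87R replicate 2) and 1545 to 2854 in Malt1_L88D against vector (2534 with all, 1545 without vector replicate 1). For other macrophage genes it gave 1 to 3 in Malt1_L88D against vector, 3 to 4 in Malt1_PD against vector (6 with all, 3 without PD replicate 3 or vector replicate 3) and 1 to 2 in Malt1_PD against Malt1_WT (1 without WT replicate 3). The highest over the lowest library in summed members was 1.82 in L88D, 1.50 without Lyz2, 2.24 without Cd68 and 2.04 without Cd14. The cause of these shifts was not tested.

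Whether replicate numbers pair the samples cannot be told from the correlations of same-numbered pairs in their deviations across genes. In no comparison were all 3 over 0.1, but 2 were in PD against vector (0.132 and 0.150). Without a block, 7997, 6521, 1706 and 2534 genes were called in WT, PD, V87R and L88D against vector, and 3399 in Malt1_PD against Malt1_WT. With the replicate number as a block, 8284, 6856, 2146 and 3032 genes were called in WT, PD, V87R and L88D against vector, 3865 in Malt1_PD against Malt1_WT and 0 in Malt1_L88D against Malt1_V87R, and 3 other macrophage genes were called in Malt1_PD against Malt1_WT in place of 2. Member log2 fold changes moved by more than their spread in 8 values with a library left out and in 5 with a prior count of 2, all of C1qb or Adgre1. Uncalled values could change sign, as C1qb in V87R against vector did (0.47 with all libraries, -1.23 without V87R replicate 2), and no called one did. C1qa, C1qc and Tyrobp had too few counts to pass the filter of the main test, which limits what can be said of single libraries to counts and their intervals. With no filter, C1qa and C1qc were called higher in PD against vector. C1qc was also called higher in L88D against vector and in PD against WT, and Tyrobp in no comparison. DESeq2 called none of them, and nothing is read from these calls.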
